A study of Mus musculus with 6 samples.

Results

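The genes described here are 10 collagen chains of the basement membrane and of the fibril surface: Col4a1, Col4a2, Col4a5, Col7a1, Col8a1, Col12a1, Col14a1, Col15a1, Col16a1 and Col18a1. They were chosen by name from the 28812 genes of the deposited table, and all 10 passed the filter on low counts, among 17290 genes tested. Cultured wild-type mouse chondrocytes, labelled as osteoarthritic (OA), were sequenced as poly(A) RNA in 6 libraries. All received interleukin-1 beta (IL-1β), an inflammatory cytokine. In 3 libraries the cells had also been given mitochondria, which the series title traces to osteocytes, and in the other 3 they had been given vehicle. The labels give no strain, age, dose or time, and do not say whether replicates were separate animals or cultures, so p-values measure only the spread between these libraries.

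Collagen IV chains wind into trimers that join through their ends into the sheet that gives a basement membrane its strength. In cartilage a thin pericellular shell around each chondrocyte carries collagen IV, laminin, nidogen and perlecan. Collagen VIII builds a separate hexagonal network, collagen VII forms the anchoring fibrils of skin, and the multiplexins XV and XVIII sit at the border of basement membranes and carry a heparan or chondroitin sulfate chain. The FACIT collagens (fibril-associated collagens with interrupted triple helices), here XII, XIV and XVI, lie along the surface of fibrils and link them to other matrix proteins.

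Chondrocytes given mitochondria had lower levels of the FACIT chains Col12a1 and Col14a1 and of the network chain Col8a1, and higher levels of the FACIT chain Col16a1 and the multiplexin Col18a1, than chondrocytes given vehicle. The collagen IV chains and the remaining members did not pass the test. Of the 10 chains, 2 rose and 3 fell at an adjusted p under 0.05 (edgeR quasi-likelihood with Benjamini-Hochberg adjustment over all genes tested). Among all genes tested 14.8% were called, 6.36% higher and 8.46% lower. The median log2 fold change was -0.09 for the 10 chains and 0.00 for all genes tested. In CPM, which are counts relative to TMM-scaled library totals, the 3 values of one group did not overlap those of the other in 6 of the 10 chains, 2 higher and 4 lower, against 40.7% of all genes tested, 19.8% higher and 20.9% lower.

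Levels are given below in FPKM, which is scaled to transcript length and depth, and log2 fold changes (mitochondria over vehicle) come from the counts, each followed by its standard error (SE). Total counts were 63547854 to 66293786 per library, and a sequenced fragment was worth about 4 counts. Replicate 1 of each group stood off from its other 2 replicates along the leading principal component of the libraries, at -81.4 against -27.4 and -34.7 with mitochondria and at 30.4 against 56.7 and 56.4 with vehicle. Chondrocyte markers were present at uneven levels. Col2a1 averaged 96.0 FPKM with mitochondria and 112 FPKM with vehicle. The 12 markers summed to 1208 to 1511 CPM with mitochondria and 1367 to 1563 CPM with vehicle, most of it from Col2a1. Comp averaged 30.4 and 31.9 FPKM in the same order of groups, Sox9 14.4 and 10.4, Cnmd 11.7 and 12.7, and Acan 2.59 and 1.87. Matn3, Snorc and Chad averaged under 1 FPKM in both groups. Of the 12, Acan and Sox9 were called higher and Hapln1 lower, where 14.8% of all genes tested were called. Acan passed in 0, Sox9 in 2 and Hapln1 in 4 of 6 edgeR fits with 1 library left out. The highest adjusted p was 0.16, for Acan without vehicle replicate 2 (edgeR). With offsets for GC content Acan did not pass (adjusted p = 0.051), while Sox9 and Hapln1 did (0.012 and 0.010, edgeR). In bulk RNA, fewer cells of a type and less RNA per cell cannot be told apart.

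**Figure D1:**
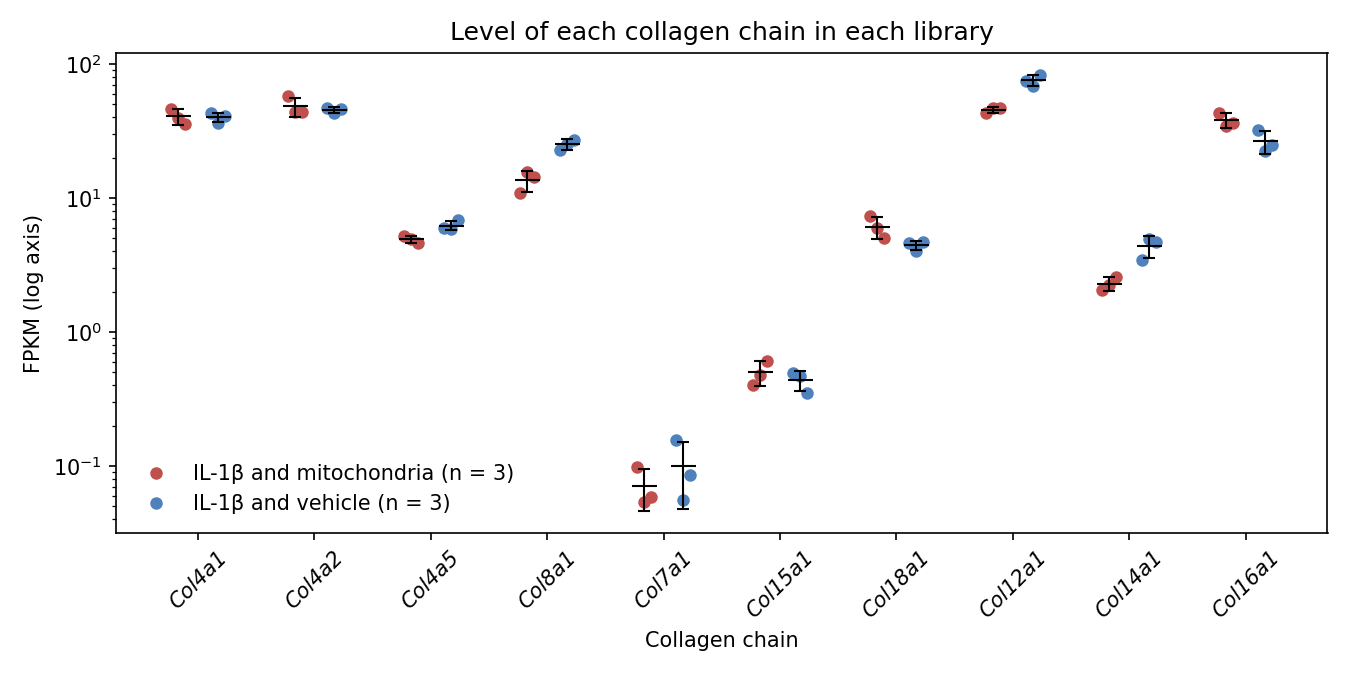
FPKM of each collagen chain (log axis) in each library, mitochondria left and vehicle right for each chain; bars are the mean and SD of 3 libraries. The groups stand apart for Col4a5, Col8a1, Col18a1, Col12a1, Col14a1 and Col16a1 and overlap for the other 4 chains.

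Col4a1 and Col4a2 encode the α1 and α2 chains of the most widespread collagen IV trimer, α1α1α2. The genes lie head to head on chromosome 8, Col4a1 (ENSMUSG00000031502) on the minus strand from 11198423 to 11312826 and Col4a2 (ENSMUSG00000031503) on the plus strand from 11312805 to 11449287 (GRCm38, 1-based), so that their first exons share 22 bases. Their RefSeq promoter windows (GRCm38.p6, 250 bases before to 50 after the start) are shown because the pair shares this start region. Capitals mark a GC box (GGGCGG) or a CCAAT box (CCAAT), each on either strand.
Col4a1, chr8:11312777-11313076, minus strand: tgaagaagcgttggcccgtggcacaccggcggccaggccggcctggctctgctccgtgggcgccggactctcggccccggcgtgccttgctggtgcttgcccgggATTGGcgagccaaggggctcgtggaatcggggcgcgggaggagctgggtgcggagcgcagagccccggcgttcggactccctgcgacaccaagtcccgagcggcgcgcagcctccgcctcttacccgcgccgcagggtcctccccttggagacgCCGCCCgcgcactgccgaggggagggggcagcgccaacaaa
Col4a2, chr8:11312555-11312854, plus strand: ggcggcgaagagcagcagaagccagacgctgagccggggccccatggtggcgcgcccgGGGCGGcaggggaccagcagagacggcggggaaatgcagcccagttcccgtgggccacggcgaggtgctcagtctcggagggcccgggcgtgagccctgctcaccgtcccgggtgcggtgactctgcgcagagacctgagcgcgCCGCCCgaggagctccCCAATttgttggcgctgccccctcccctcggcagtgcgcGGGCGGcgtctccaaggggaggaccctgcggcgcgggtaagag
Both windows were rich in G and C (74.0% for Col4a1 and 73.7% for Col4a2, against a median of 52.7% over all windows of this length). The 2 windows overlap by 78 bases, and the GC box of the Col4a1 window is the same 6 bases (11312812 to 11312817) as the last of the 3 GC boxes in the Col4a2 window. These 6 bases lie within the 22 that the genes share. No TATA box (TATAAA) was found in either window.

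Col4a1 had 46.5, 39.4 and 35.7 FPKM in the mitochondria libraries, against 42.9, 36.3 and 40.8 FPKM in the vehicle libraries. Col4a2 had 57.3, 43.6 and 43.7 FPKM with mitochondria and 47.3, 43.1 and 46.1 FPKM with vehicle. The groups overlapped for both chains. The log2 fold change was 0.09 ± 0.12 for Col4a1 (95% interval -0.18 to 0.36; adjusted p = 0.67, edgeR) and 0.15 ± 0.12 for Col4a2 (-0.12 to 0.42; adjusted p = 0.44). With offsets for GC content the estimates were -0.04 and -0.07, opposite in sign and likewise not past the threshold. Without mitochondria replicate 1, which held the highest value of both chains, they were -0.02 and 0.01.

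The balance of the pair was measured as the ratio of Col4a1 FPKM to Col4a2 FPKM. It was 0.812, 0.903 and 0.817 in the mitochondria libraries and 0.907, 0.842 and 0.884 in the vehicle libraries. Means were 0.844 ± 0.0511 with mitochondria and 0.878 ± 0.0326 with vehicle (SD, n = 3 each), and the groups overlapped. The difference in log2 ratio was -0.06 (exact two-sided permutation p = 0.3 over 20 assignments, where the smallest possible p is 0.1). A reading below 1 does not give the number of chains in a protein trimer, since the FPKM of each gene rests on the transcript lengths the authors' software assigned.

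Col4a5, an X-linked chain that assembles into the trimers α3α4α5 and α5α5α6, was a minor collagen IV chain here. Its level was 5.23, 4.95 and 4.60 FPKM with mitochondria, against 5.999, 5.88 and 6.80 FPKM with vehicle. Every mitochondria library lay below every vehicle library, yet the chain did not pass the test (log2 -0.27 ± 0.11, 95% interval -0.51 to -0.02; adjusted p = 0.13, edgeR). Its usual partners were at low levels. Col4a6 averaged 0.118 FPKM with mitochondria and 0.242 FPKM with vehicle (log2 -0.96 ± 0.35, adjusted p = 0.098, edgeR). Col4a3 averaged 0.0623 FPKM with mitochondria and 0.0356 FPKM with vehicle, and Col4a4 0.0230 and 0.0323 FPKM in the same order of groups.

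Col8a1, the α1 chain of collagen VIII, fell. This short-chain collagen is made by endothelium and smooth muscle and builds the hexagonal lattice of the corneal Descemet membrane. Col8a1 (ENSMUSG00000068196, chromosome 16, 57624258 to 57754737, minus strand) had 10.8, 15.5 and 14.3 FPKM with mitochondria, against 22.7, 25.3 and 27.2 FPKM with vehicle. The groups were apart, and mitochondria replicate 1 was the lowest library. The log2 fold change was -0.82 ± 0.14 (SE; 1.76-fold higher in vehicle; adjusted p = 0.0093, edgeR). The call was lost without vehicle replicate 3 (log2 -0.76, adjusted p = 0.053, edgeR) and held in the other 5 fits with 1 library left out. With offsets for GC content and length the estimate was -0.43 (adjusted p = 0.0049, edgeR). Col8a2, which forms trimers with Col8a1 or by itself, fell as well, with 4.16, 2.999 and 3.91 FPKM in mitochondria libraries and 5.57, 7.26 and 7.40 FPKM in vehicle libraries (log2 -0.80 ± 0.16, adjusted p = 0.016, edgeR). Its call was lost without vehicle replicate 2 or vehicle replicate 3 (highest adjusted p = 0.083).

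Endothelial, pericyte and smooth muscle markers were measured beside Col8a1 and collagen IV, since those cells are rich in both. Of 10 endothelial markers, Tie1 and Cldn5 were at 0 in all 6 libraries, and the 10 together summed to 4.91 to 7.72 CPM with mitochondria and 5.17 to 6.87 CPM with vehicle. None of the 7 tested passed in edgeR or DESeq2 (1 had an unadjusted p under 0.05, in both). Pericyte and smooth muscle markers summed to 197 to 245 CPM with mitochondria and 259.8 to 302 CPM with vehicle. Of 8 tested 1 fell in edgeR, the growth factor receptor Pdgfrb (log2 -1.03 ± 0.17, adjusted p = 0.0089), where 8.46% of all genes tested fell. In that fit 3 of the list were lower at an unadjusted p under 0.05. DESeq2 called 3 lower, and edgeR with GC offsets called 2 lower. Most of that sum came from Cspg4, Pdgfrb and Notch3, at 8.62, 7.95 and 4.57 FPKM with mitochondria and 10.4, 17.05 and 4.10 FPKM with vehicle, and Des averaged 1.11 and 0.940 FPKM in the same order of groups. Rgs5, Myh11, Kcnj8 and Abcc9 were under 0.3 FPKM on average in both groups, and none of the list was at 0 in all libraries. Their part in the fall of Col8a1 was not tested.

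Col7a1 and the multiplexin Col15a1 were near the bottom of the range. Col7a1, the chain of anchoring fibrils, had 0.0988, 0.0538 and 0.0592 FPKM with mitochondria and 0.158, 0.0561 and 0.0858 FPKM with vehicle. These levels rest on about 10 to 18.5 fragments in mitochondria libraries and 10.8 to 29.2 in vehicle libraries, the groups overlapped, and the interval of the change was wide (log2 -0.44 ± 0.49, 95% interval -1.56 to 0.68; adjusted p = 0.59, edgeR). Its estimate was 0.06 without vehicle replicate 1. Col15a1 had 0.403, 0.481 and 0.613 FPKM with mitochondria and 0.494, 0.470 and 0.352 FPKM with vehicle, with overlapping groups (log2 0.25 ± 0.25, 95% interval -0.32 to 0.81; adjusted p = 0.55, edgeR).

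Col18a1, whose C-terminal fragment endostatin inhibits the growth of blood vessels, rose. The gene (ENSMUSG00000001435) lies on chromosome 10 from 77052178 to 77166548 on the minus strand. It had 7.34, 5.92 and 5.04 FPKM in mitochondria libraries, against 4.63, 4.04 and 4.66 FPKM in vehicle libraries, and the groups were apart, by the least in mitochondria replicate 3. The log2 fold change was 0.53 ± 0.15 (1.44-fold higher with mitochondria; adjusted p = 0.049, edgeR). This was the weakest call of the 5. It held in 1 of 6 fits with 1 library left out, the fit without mitochondria replicate 3, and with GC offsets the estimate was 0.31 (adjusted p = 0.080, edgeR). Without each of the other libraries the highest adjusted p was 0.19, from the fit without vehicle replicate 2. With GC and length offsets the call held (log2 0.42, adjusted p = 0.028, edgeR). RefSeq gives Col18a1 2 promoter windows: the one ending at 77166780 holds 3 GC boxes and 1 CCAAT box, and the one ending at 77113955 holds neither. The gene-level values here do not separate transcripts from these starts.

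Col12a1, the FACIT chain that coats type I collagen fibrils in tendon, ligament and the cartilage surface, had the highest FPKM of the 10 chains in vehicle libraries. The gene (ENSMUSG00000032332) lies on chromosome 9 from 79598991 to 79718720 on the minus strand. Its level was 43.0, 47.0 and 46.5 FPKM with mitochondria, against 74.9, 68.8 and 82.9 FPKM with vehicle. All 3 mitochondria libraries lay well below the lowest vehicle library. The log2 fold change was -0.66 ± 0.09 (1.58-fold higher in vehicle; adjusted p = 0.0053, edgeR). This call held in all 17 alternatives run for it, with estimates from -0.73 to -0.46 and a highest adjusted p of 0.034.

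Col14a1, a FACIT chain of dense connective tissue, fell too. On chromosome 15 (55307750 to 55520803, plus strand; ENSMUSG00000022371), it had 2.05, 2.23 and 2.59 FPKM with mitochondria, against 3.45, 4.95 and 4.73 FPKM with vehicle. The groups were apart, and vehicle replicate 1 was the vehicle library nearest the mitochondria libraries. The log2 fold change was -0.86 ± 0.16 (1.82-fold higher in vehicle; adjusted p = 0.012, edgeR). It did not pass without vehicle replicate 2 (log2 -0.77, adjusted p = 0.065) or vehicle replicate 3 (log2 -0.81, adjusted p = 0.065) in edgeR, and passed in the other 15 alternatives.

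Col16a1, a FACIT chain found in cartilage and skin, where it associates with thin collagen fibrils or with fibrillin, rose while the other FACIT members fell. It (ENSMUSG00000040690, chromosome 4, 130047840 to 130099283, plus strand) had 43.4, 34.2 and 36.2 FPKM with mitochondria, against 32.2, 22.3 and 24.9 FPKM with vehicle. The groups were apart by a narrow margin, between mitochondria replicate 2 and vehicle replicate 1. The log2 fold change was 0.59 ± 0.15 (1.502-fold higher with mitochondria; adjusted p = 0.037, edgeR). The call was lost without mitochondria replicate 1 (adjusted p = 0.063), mitochondria replicate 3 (0.083), vehicle replicate 2 (0.14) or vehicle replicate 3 (0.15), all in edgeR. It was also lost with GC offsets (log2 0.37, adjusted p = 0.062), with GC and length offsets (0.38, 0.056) and with no filter on low counts (0.59, 0.10), in edgeR. The call held with the replicate number as a block together with GC offsets (log2 0.39, adjusted p = 0.040, edgeR).

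The promoter windows of Col16a1, which rose, and Col8a1, which fell, are shown side by side as the pair of called chains with opposite directions and the most distant GC contents of their transcripts. Capitals mark GC boxes and CCAAT boxes as above.
Col16a1, chr4:130047590-130047889, plus strand: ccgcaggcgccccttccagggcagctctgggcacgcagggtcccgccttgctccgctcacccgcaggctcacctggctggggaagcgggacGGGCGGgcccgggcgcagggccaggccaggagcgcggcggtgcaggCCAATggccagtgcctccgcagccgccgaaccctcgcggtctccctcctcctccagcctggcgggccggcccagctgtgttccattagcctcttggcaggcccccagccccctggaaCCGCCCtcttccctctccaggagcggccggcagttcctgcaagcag
Col8a1, chr16:57754688-57754987, minus strand: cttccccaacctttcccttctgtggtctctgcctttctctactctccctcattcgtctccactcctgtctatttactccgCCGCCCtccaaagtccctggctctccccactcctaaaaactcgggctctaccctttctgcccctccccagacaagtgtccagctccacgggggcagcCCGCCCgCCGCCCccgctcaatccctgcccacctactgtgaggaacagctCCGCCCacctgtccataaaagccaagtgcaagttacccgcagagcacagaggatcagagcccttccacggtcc
The Col16a1 window holds 2 GC boxes and 1 CCAAT box, and the Col8a1 window holds 4 GC boxes and no CCAAT box. The promoter windows used here matched 8 of the 10 members by symbol, with none for Col12a1 and Col14a1, which fell. Over the 9 windows of those 8 members, 7 hold a GC box and 6 a CCAAT box. No window holds a TATA box or the AP-1 motif TGANTCA. Among 32851 promoter windows of the same length, 35.7% hold GGGCGG, 37.4% CCAAT, 13.6% TATAAA and 7.81% TGANTCA, and no GC box found in the members overlaps a CCAAT box. A match describes the letters only and is not evidence of a bound site.

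The transcripts of Col16a1 and Col18a1, the chains that rose, had mean GC contents of 60.6% and 60.3%. Those of Col8a1, Col12a1 and Col14a1, the chains that fell, had 44.9%, 49.9% and 50.7%. Among the chains not called, Col4a2 had 60.5%, Col7a1 57.6%, Col15a1 56.4%, Col4a1 54.2% and Col4a5 50.2%. Log2 fold changes without and with offsets for GC content were 0.15 and -0.07 for Col4a2. They were 0.59 and 0.37 for Col16a1, and 0.53 and 0.31 for Col18a1. The part of GC content in the rises was not tested. The median over the genes tested was 50.5%. With GC offsets, which remove a smooth dependence of each library on GC content, none of the 10 chains was called higher (2 had an unadjusted p under 0.05 in edgeR, and DESeq2 without offsets called 2) and 3 were called lower: Col8a1 at -0.57, Col12a1 at -0.66 and Col14a1 at -0.88. In that fit 19.1% of all genes tested were called.

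**Figure D2:**
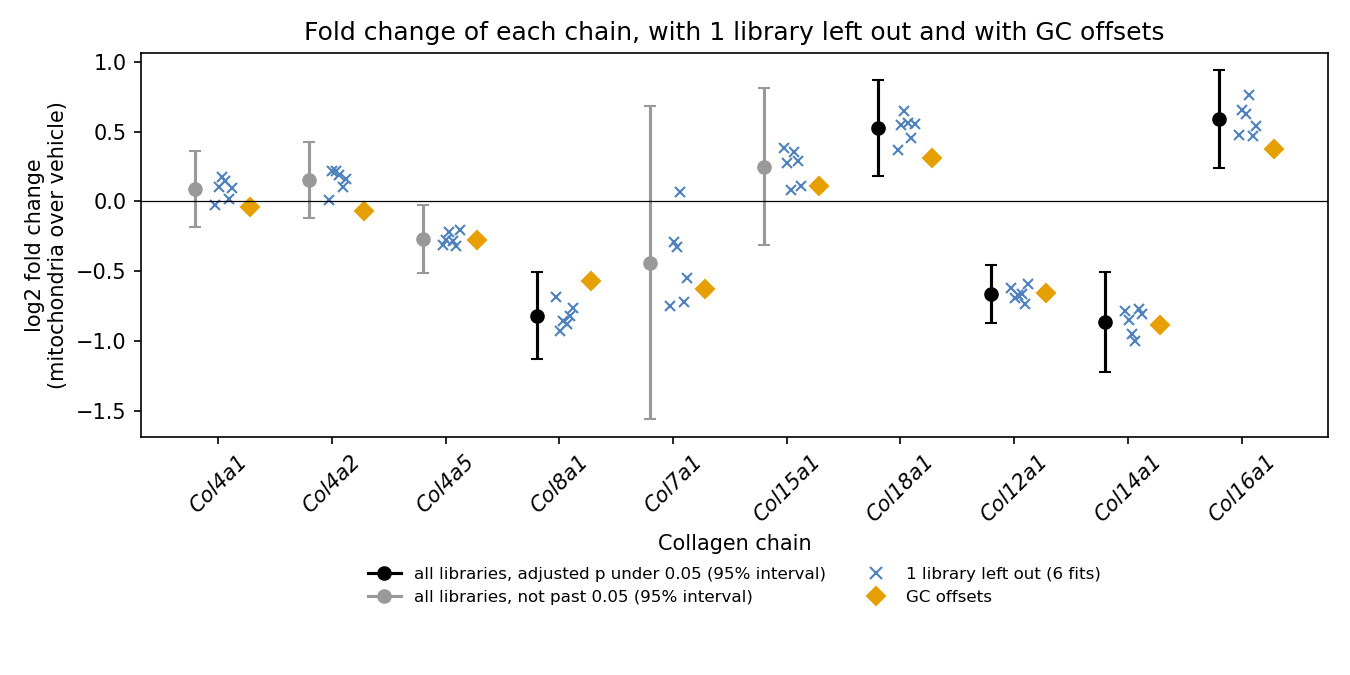
Log2 fold change (mitochondria over vehicle) of each chain with its 95% interval (circle; black past an adjusted p of 0.05), the 6 fits with 1 library left out (crosses) and the fit with GC offsets (diamond). Col12a1 stays between -0.73 and -0.59 in the crosses, while Col16a1 and Col18a1 move to 0.37 and 0.31 with GC offsets.

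The order of levels differed between the groups. In mitochondria libraries Col4a2 (48.2 ± 7.85 FPKM), Col12a1 (45.5 ± 2.18), Col4a1 (40.5 ± 5.47) and Col16a1 (37.9 ± 4.83; SD, n = 3) formed a leading set in which each chain overlapped its neighbour, and none of them overlapped Col8a1. In vehicle libraries Col12a1 (75.5 ± 7.09 FPKM) stood above Col4a2 (45.5 ± 2.13), which stood above Col4a1 (40.0 ± 3.33), with no overlap between neighbours. Below these, Col8a1 stood apart from its neighbours with mitochondria, at 13.5 ± 2.42 FPKM, and overlapped Col16a1 with vehicle, at 25.1 ± 2.26 FPKM. Col18a1, Col4a5 and Col14a1 followed, and Col15a1 and Col7a1 were last in both groups.

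Col12a1 made up 22.9% ± 2.62 of the summed FPKM of the 10 chains with mitochondria and 33.1% ± 1.49 with vehicle (SD, n = 3 each). The share of Col8a1 was 6.86% ± 1.61 with mitochondria and 11.03% ± 1.20 with vehicle, and that of Col16a1 was 19.0% ± 1.19 with mitochondria and 11.6% ± 1.86 with vehicle. Col4a1 and Col4a2 made up 20.2% and 24.0% with mitochondria and 17.5% and 19.97% with vehicle. The summed level was 199.6 ± 14.4 FPKM with mitochondria and 228 ± 14.8 FPKM with vehicle, and the groups overlapped. A share depends on every chain in the sum, so the shares are not independent of each other.

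**Figure D3:**
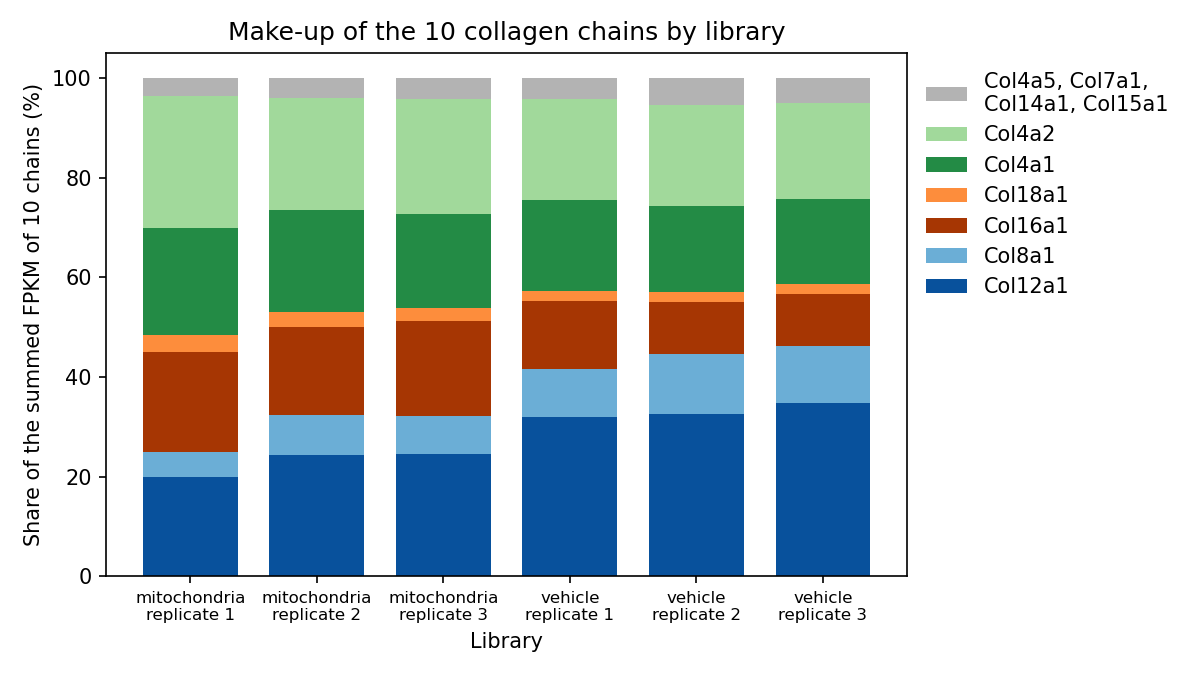
Share (%) of each chain in the summed FPKM of the 10 chains, by library, with mitochondria libraries on the left. Col12a1 holds 19.9% to 24.6% of the sum in mitochondria libraries and 31.9% to 34.7% in vehicle libraries.

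Other collagen chains, including the transmembrane class that the chains described above lack, were counted next. The list held 18 chains, most of them network-forming, FACIT or transmembrane, and also Col26a1 and Col28a1. Of 15 tested, 1 rose and 2 fell, with a median log2 fold change of -0.33, where 6.36% of all genes tested rose and 8.46% fell. Those that fell were Col8a2, described above, and the FACIT chain Col19a1, with 0.0271, 0.105 and 0.0395 FPKM in mitochondria libraries and 0.262, 0.179 and 0.322 FPKM in vehicle libraries (log2 -2.05 ± 0.54, adjusted p = 0.036, edgeR). Col17a1, a transmembrane collagen of hemidesmosomes, rose, with 0.720, 0.736 and 0.381 FPKM with mitochondria against 0.248, 0.309 and 0.357 FPKM with vehicle (log2 1.08 ± 0.30, adjusted p = 0.047, edgeR). Col19a1 and Col17a1 were both under 1 FPKM, and each kept its call in 1 of 6 fits with 1 library left out. The highest adjusted p was 0.14 for each, without vehicle replicate 3 for Col19a1 and without vehicle replicate 2 for Col17a1, and Col17a1 did not pass with GC offsets (0.061, edgeR).

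Partners of collagen IV in the basement membrane were called at a share near that of all genes tested (14.8%): of 28, 2 rose and 3 fell, with a median log2 fold change of -0.05. Nidogen-2 (Nid2), which bridges laminin and collagen IV, had 6.51, 6.33 and 6.48 FPKM in mitochondria libraries, against 13.0, 19.3 and 19.2 FPKM in vehicle libraries (log2 -1.34 ± 0.15, adjusted p = 0.0036, edgeR). That fall was called in all 6 fits with 1 library left out. Its relative Nid1, which serves the same bridge, had 78.3, 83.8 and 79.3 FPKM with mitochondria and 84.0, 62.6 and 71.4 FPKM with vehicle, with overlapping groups (log2 0.21 ± 0.12, adjusted p = 0.24, edgeR). Agrin (Agrn), a heparan sulfate proteoglycan, rose, with 12.3, 9.85 and 9.04 FPKM with mitochondria and 6.54, 5.93 and 6.64 FPKM with vehicle (log2 0.78 ± 0.13, adjusted p = 0.0093, edgeR).

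The laminin chain Lama2 (log2 -1.21 ± 0.29) and nephronectin, Npnt (-0.67 ± 0.13), fell, and the calcium-binding protein Smoc1 rose (0.68 ± 0.19), with edgeR adjusted p-values of 0.027, 0.014 and 0.048. Lama2 was at a low level, with 0.0489, 0.0487 and 0.0638 FPKM with mitochondria and 0.152, 0.129 and 0.115 FPKM with vehicle. Perlecan, Hspg2, the large heparan sulfate proteoglycan of the pericellular shell, averaged 106 FPKM with mitochondria and 104 FPKM with vehicle (adjusted p = 0.65, edgeR). The laminin chains with the most transcript per length, Lamb1 and Lamc1, had log2 fold changes of 0.13 ± 0.09 and -0.22 ± 0.08 (adjusted p = 0.35 and 0.093, edgeR). Agrn did not pass without vehicle replicate 2 or 3 (highest adjusted p = 0.058), and Npnt, Lama2 and Smoc1 passed in 3, 1 and 0 of the 6 fits, where Smoc1 reached an adjusted p of 0.18 without vehicle replicate 3 and Lama2 0.092 without vehicle replicate 2 (edgeR). With GC offsets Lama2 and Smoc1 did not pass (adjusted p = 0.087 and 0.053, edgeR).

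Receptors for collagen and laminin moved in both directions. Of 15 tested, 1 rose and 3 fell, with a median log2 fold change of 0.25, where 6.36% of all genes tested rose and 8.46% fell. The collagen-binding integrin subunits Itga1, which prefers collagen IV, and Itga10, a chondrocyte integrin, fell (log2 -1.35 ± 0.28 and -0.81 ± 0.18, adjusted p = 0.019 and 0.023, edgeR). Itga1 averaged 0.359 FPKM with mitochondria and 0.963 FPKM with vehicle. The subunits Itga2 (log2 1.19 ± 0.39, adjusted p = 0.073), Itga11 (-0.38 ± 0.12, 0.068) and Itgb1 (-0.02 ± 0.09, 0.92; edgeR) did not pass. Ddr2, a receptor tyrosine kinase for fibrillar collagen, fell to 16.8, 26.8 and 24.8 FPKM in mitochondria libraries, against 37.6, 42.0 and 42.0 FPKM in vehicle libraries (adjusted p = 0.019, edgeR). Ddr1, its relative that also binds collagen IV, had 35.4, 30.2 and 31.2 FPKM with mitochondria and 27.6, 24.4 and 27.8 FPKM with vehicle, apart but not past the threshold (log2 0.35 ± 0.10, adjusted p = 0.053, edgeR). The integrin subunit Itgb3 rose (log2 1.17 ± 0.25, adjusted p = 0.020, edgeR). Itga1, Itgb3 and Ddr2 each kept their call in 3 of 6 fits with 1 library left out and Itga10 in 2, with the losses for all 4 including the fits without mitochondria replicate 3, vehicle replicate 2 and vehicle replicate 3 (highest adjusted p = 0.099).

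Matrix proteins that share the fibril surface with FACIT collagens were counted next. Of 11 tested, 5 fell and none rose in edgeR (2 had estimates above 0 with an unadjusted p under 0.05, and DESeq2 called 1 higher), with a median log2 fold change of 0.00. Over all genes tested 8.46% were called lower and 6.36% higher. Fn1 (log2 0.35 ± 0.11, adjusted p = 0.072) and Tnc (0.41 ± 0.17, adjusted p = 0.14; edgeR) were the 2 above 0 at that unadjusted p. Fn1 averaged 1069 FPKM with mitochondria and 879 FPKM with vehicle, with the groups apart. The 11 genes summed to 18926 to 21068 CPM with mitochondria and 14771 to 17976 CPM with vehicle. With GC and length offsets 3 of the list were called higher and 5 lower, where 1702 and 1506 of all genes tested were. Abi3bp, a matrix protein that binds the collagen-rich matrix, changed the most, at 1.41, 1.84 and 1.40 FPKM with mitochondria and 3.12, 4.36 and 4.96 FPKM with vehicle (log2 -1.34 ± 0.19, adjusted p = 0.0057, edgeR). Tgfbi, which binds collagens including type XII, fell by 0.72 on the log2 scale (adjusted p = 0.012), periostin, Postn, by 0.93 (adjusted p = 0.049), and the fibril-binding proteoglycans lumican, Lum, and fibromodulin, Fmod, by 0.54 and 0.40 (adjusted p = 0.049 and 0.034; edgeR). With GC offsets Lum stood at -0.06 (adjusted p = 0.68) and Postn at -0.49 (adjusted p = 0.037, edgeR). Decorin, Dcn, a ligand of collagens XII and XIV, averaged 256 FPKM with mitochondria and 217 FPKM with vehicle (adjusted p = 0.22, edgeR). Abi3bp passed in all 6 fits with 1 library left out, and Tgfbi, Fmod, Postn and Lum in 4, 2, 2 and 1, with losses without vehicle replicate 2 or 3 in each (highest adjusted p = 0.17).

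**Figure D4:**
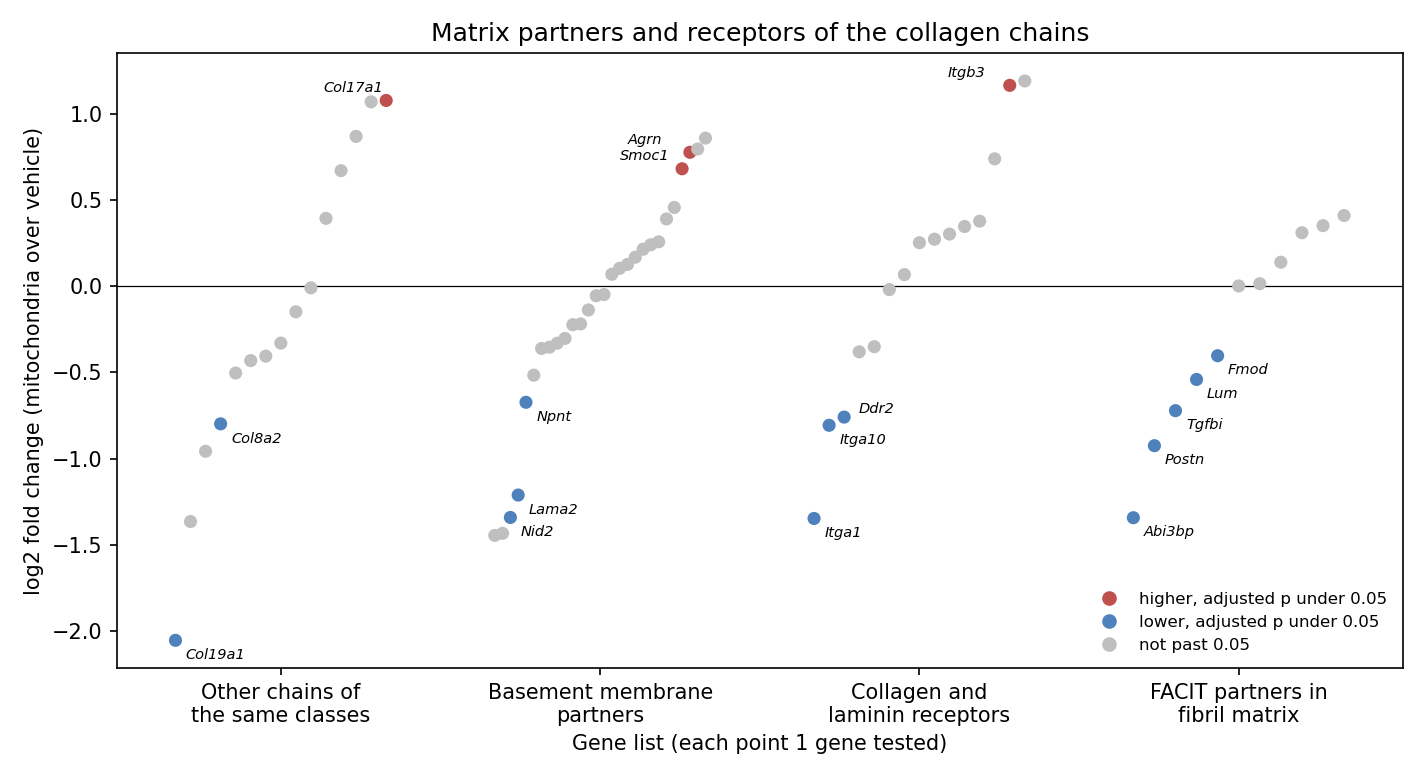
Log2 fold change (mitochondria over vehicle) of each gene tested in 4 lists of matrix partners and receptors, sorted within each list; red points are higher and blue points lower at an adjusted p under 0.05. The genes called are named, with Nid2 at -1.34 and Agrn at 0.78 among the basement membrane partners.

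Markers of connective tissue fibroblasts, which also make collagens XII and XIV, were measured beside the FACIT chains. Of 8 tested, 3 fell and 1 rose, where 8.46% of all genes tested fell and 6.36% rose. Thy1 had 25.2, 20.4 and 22.9 FPKM with mitochondria and 33.4, 37.5 and 36.5 FPKM with vehicle (log2 -0.58 ± 0.10, adjusted p = 0.011, edgeR), and Pdgfra and Dpp4 fell as well (log2 -0.64 ± 0.11 and -1.88 ± 0.28; edgeR adjusted p = 0.011 and 0.0067), while Cd34 rose (0.45 ± 0.10, adjusted p = 0.024). Col1a1, the most abundant of them, averaged 736 FPKM with mitochondria and 791 FPKM with vehicle. The summed level of the 9 markers was 5853 to 6870 CPM in mitochondria libraries and 5890 to 6890.0 CPM in vehicle libraries, and none was at 0 in all libraries. Dpp4 passed in all 6 fits with 1 library left out, Thy1 and Pdgfra in 4 and Cd34 in 2, with losses without vehicle replicate 2 or 3 (highest adjusted p = 0.11). Their part in the fall of Col12a1 and Col14a1 was not tested.

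Epithelial markers summed to 3.14 to 3.58 CPM with mitochondria and 7.20 to 8.94 CPM with vehicle, and none of the 6 was at 0 in all libraries. Of 4 tested Krt8 and Krt14 fell, where 8.46% of all genes tested fell. Krt14 passed in 3 and Krt8 in 1 of 6 fits with 1 library left out (highest adjusted p = 0.16, Krt8 without vehicle replicate 3). Osteocyte markers summed to 0.528 to 1.45 CPM with mitochondria and 0.629 to 1.40 CPM with vehicle. None of the 2 osteocyte markers tested, Fgf23 and Bglap, passed in edgeR or DESeq2, with none at an unadjusted p under 0.05. Dkk1, which missed the filter on low counts, had 0 counts in all 3 mitochondria libraries, against 7, 26 and 27 counts in vehicle libraries. It was tested in 5 alternatives and called lower in 2 of them, without mitochondria replicate 1 and without vehicle replicate 1 (adjusted p = 0.046 and 0.044, over a range of 0.044 to 0.074, edgeR). Dmp1 and Sost were at 0 in every mitochondria library and had 4 counts in 1 vehicle library each. Fgf23 had 19, 32 and 68 counts with mitochondria and 17, 8 and 24 counts with vehicle (log2 1.34 ± 0.73, adjusted p = 0.25, edgeR). Bglap had 11, 6 and 10 counts with mitochondria and 13, 6 and 9 with vehicle. Phex, which also missed the filter, had 4, 8 and 14 counts with mitochondria and 0, 7 and 33 with vehicle. The Schwann cell list summed to 20.7 to 23.0 CPM with mitochondria and 10.9 to 13.5 CPM with vehicle, nearly all of it from S100b, which chondrocytes also express and which rose (log2 0.92 ± 0.13, adjusted p = 0.0051, edgeR).

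For the 3 chains of lowest adjusted p, which include Col12a1, the chain with the highest mean FPKM over all 6 libraries, the genes of most similar pattern were named by Pearson correlation of log2 CPM over the 6 libraries, which share the same groups and depths. For Col12a1 they were Nr5a2, Cetn2 and Gm20300 (r = 0.997, 0.994 and 0.993). Pi15, Nrip1 and Antxr2 were closest to Col8a1 (r = 0.9997, 0.999 and 0.999). Antxr2 encodes a cell surface receptor that binds collagen IV and laminin and serves as an anthrax toxin receptor, and its log2 fold change was -0.50 (adjusted p = 0.024, edgeR). Ttl, Klhdc7a and Ptpn13 were closest to Col14a1 (r = 0.999, 0.999 and 0.997). The 3 genes for each chain are those of highest r among all genes tested outside the 10 chains, and values this near to 1 over 6 points describe these libraries only.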

How the data were processed

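Poly(A) RNA of 6 cultured chondrocyte libraries (3 with mitochondria, 3 with vehicle) was sequenced as paired-end reads, per the labels' protocols. The authors deposited 1 table with FPKM values, scaled to length and depth, and a column of estimated counts (expected counts) as whole numbers without scaling. The submitters' processing notes name HISAT2 2.0, StringTie 1.3.0, Bowtie 0.12.2 and build mm8, with no roles. The coordinates are on GRCm38: 25914 of 28732 gene identifiers found in GENCODE M21 had the same start and end. Counts are not read tallies: the value 4 occurred 2.31 to 2.84 times as often as 3 and 5 did on average.

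The count test was edgeR 4.0.16 under R 4.3.3 (TMM scaling, filterByExpr with a minimum count of 10, quasi-likelihood fit on group, two-sided, Benjamini-Hochberg over 17290 genes, threshold 0.05). SEs are the size of the log2 fold change divided by the root of F, so they are not independent of the p-value. The procedure was tested on simulated data. Alternatives were DESeq2 1.42.0, limma 3.58.1 on log2(FPKM + 1) and log2(FPKM + 0.1) for genes with at least 1 FPKM in 3 libraries, other scaling factors, no filter, counts divided by 4, offsets for GC content (and length) from a lowess fit with span 0.3, a replicate block, and each library left out. GC content and length are means over the transcripts the table lists for a gene, read from GENCODE M21 sequences, and 17271 genes tested had them.

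The 10 members, the gene lists and the rules for named genes were chosen with earlier results of these data known. All members are named, and in each list the genes past 0.05. Strand use in counting is not given in the sources used here. Exons of Col4a1 and Col4a2 share 22 bases, and antisense genes share 43 exon bases with Col4a2 and 14 with Col15a1. The labels state no pairing, so none was used in the main fit. Same-numbered replicates of the 2 groups correlated at 0.04, 0.01 and -0.02 after group means were removed. With 3 libraries per group these values cannot show whether replicates were paired. Promoter sequences are from RefSeq (GRCm38.p6), matched by symbol for 8 of 10 members. Listed genes absent from the table are not analysed here.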

Additional observations from a re-analysis of the deposited data

How the results depend on the processing

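Of the 5 chains called, Col12a1 kept its call in all 17 alternatives, Col8a1 in 16, Col14a1 in 15, Col16a1 in 10 and Col18a1 in 6, and every alternative kept the direction of these 5. The number of chains called higher (2) was 0 with no filter on low counts and 0 with GC offsets (2 had an unadjusted p under 0.05 in each edgeR fit, and DESeq2 called 2). It was 1 with limma at either pseudocount, 1 with GC and length offsets, 1 with the replicate number as a block, 1 with that replicate block and GC offsets, and 0 to 1 with 1 library left out. The number called lower (3) was 1 to 3 with 1 library left out. Among all genes, 1099 were higher and 1463 lower. Higher genes numbered 357 with no filter, 1687 in DESeq2, 1688 with GC offsets, 1702 with GC and length offsets and 130 to 1086 with 1 library left out. Lower genes numbered 507 with no filter, 2175 in DESeq2 and 310 to 1694 with 1 library left out. The cause of these differences was not tested. The replicate block lost the call of Col18a1 (adjusted p = 0.062, edgeR) and of no other chain. The estimates of Col4a1 and Col4a2, not called, were below 0 with GC offsets, and Col7a1 and Col15a1 could not be fitted in limma, where their FPKM stayed under 1. The log2 difference of the Col4a1 to Col4a2 ratio stayed below 0 in the 8 alternatives run for it. Few counts stand behind Col7a1, whose estimate turned to 0.06 without vehicle replicate 1.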
